A study of Mus musculus with 12 samples.

Results

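The genes described here encode 10 ion channels, channel subunits and channel partners other than Kv1.3 that are known in microglia and T cells. They were picked by gene name from a table of 21643 gene rows, and all 10 have a single row in it. They comprise the potassium channels Kcnj2, Kcnk6, Kcnk13 and Kcnn4, the ATP-gated cation channels P2rx4 and P2rx7, the proton channel Hvcn1, the store-operated calcium entry genes Orai1 and Stim1, and the cation channel Trpm2. RNA sequencing gave counts for 12 mouse brain libraries, each from its own mouse, in 4 groups of 3 called ShK-223, PAP-1, PBS and Control. All 4 groups carry the genotype 5xFAD, a transgenic amyloid model in which the neuronal Thy1 promoter drives mutant human amyloid precursor protein and presenilin, so no group is free of amyloid transgenes. ShK-223, a peptide modelled on a toxin of sea anemones, and PAP-1, a small organic molecule, both block Kv1.3, the voltage-gated potassium channel that Kcna3 encodes. PBS is a phosphate-buffered saline commonly used as a vehicle. The labels leave the strain unspecified, and the sources used here state neither the dose, route, duration or age nor how Control and PBS mice were treated differently.

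Microglia are the resident macrophages of the brain. Potassium channels keep their membrane potential negative, which drives calcium entry through store-operated channels and shapes their movement and cytokine release. Extracellular ATP opens P2X receptors, and the potassium loss that follows P2X7 opening is a known trigger of the NLRP3 inflammasome and of interleukin-1 beta release. The proton channel balances the charge moved by the NADPH oxidase when microglia make superoxide.

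All libraries are labelled whole brain, yet markers of brain regions differed between them. Gabra6, a receptor subunit of cerebellar granule cells, was at 384 to 452 CPM (read counts scaled to a common library total, as edgeR's cpm function gives them) in the PBS libraries and at 332 CPM in Control 2. It was at 58.4 CPM in PAP-1 1 and at 0.0560 to 1.23 CPM in the other 7 libraries. A cerebellar index, the mean over 20 granule and Purkinje cell genes of each gene's level relative to its highest library, was 0.0567 to 0.0824 in ShK-223, 0.0702 to 0.191 in PAP-1 and 0.855 to 0.983 in PBS. In Control it was 0.077, 0.794 and 0.0788 in libraries 1, 2 and 3. Thus 3 PBS libraries and Control 2 were rich in cerebellar transcript and the other 8 were not, which coincides with the contrast of each compound against PBS. The summed level of 17 microglia markers was 1104 to 1229.6 CPM in ShK-223, 946 to 1322 CPM in PAP-1 and 311 to 645 CPM in PBS. In Control it was 1869.7, 454 and 1283 CPM. The summed level of 10 T cell markers was 8.57 to 22.7 CPM in ShK-223, 6.17 to 7.95 CPM in PAP-1, 2.00 to 4.96 CPM in PBS and 2.73 to 33.9 CPM in Control. The highest sums, 33.9, 28.8, 22.7 and 16.1 CPM, were in Control 1, Control 3, ShK-223 2 and ShK-223 3. These libraries also had the highest striatal index, at 1, 0.797, 0.669 and 0.335. That index is built like the cerebellar index from 8 striatal genes, chosen after seeing the data. Of the 3 T cell markers that were tested, Lck and Zap70 rose with both compounds against PBS. The third, Cd4, had a log2 fold change of 3.15 with ShK-223 (edgeR adjusted p = 0.0799) and -0.23 with PAP-1 (adjusted p = 0.908). The T cell receptor component Cd3e had 11, 0 and 2 counts in ShK-223 and 4, 2 and 4 in PAP-1. It had 6, 7 and 7 counts in PBS and 4, 6 and 3 in Control. The B cell marker Cd79a had 1 to 8 counts, and 0 of 2 tested B cell markers rose. The part of T cell transcript in the results below was not tested. Control 2 was the only library whose column name carries lane 1 in place of lane 7, and whether its label is right was not tested. Total counts were 14364013 to 19048551 per library.

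Levels of the 10 genes were first compared with each other per kilobase of exon. Stim1 was the most abundant, at a median of 10.8 CPM per kilobase over the 12 libraries, and did not overlap with any of the others. Trpm2 followed at 4.61, P2rx4 at 3.18, Kcnk13 at 2.74, Kcnj2 at 2.66, Orai1 at 2.60, P2rx7 at 2.50, Kcnk6 at 1.69 and Hvcn1 at 0.761 CPM per kilobase. Kcnn4 was lowest at 0.0702 CPM per kilobase, below each library's value of every other gene. Between Kcnk13 and P2rx7 the order was not stable, since Kcnk13 exceeded Kcnj2 in 6 of 12 libraries, Kcnj2 exceeded Orai1 in 6 of 12 and Orai1 exceeded P2rx7 in 7 of 12. Trpm2 exceeded P2rx4 in 11 of 12, P2rx7 exceeded Kcnk6 in 11 of 12 and Kcnk6 exceeded Hvcn1 in 12 of 12.

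**Figure D1:**
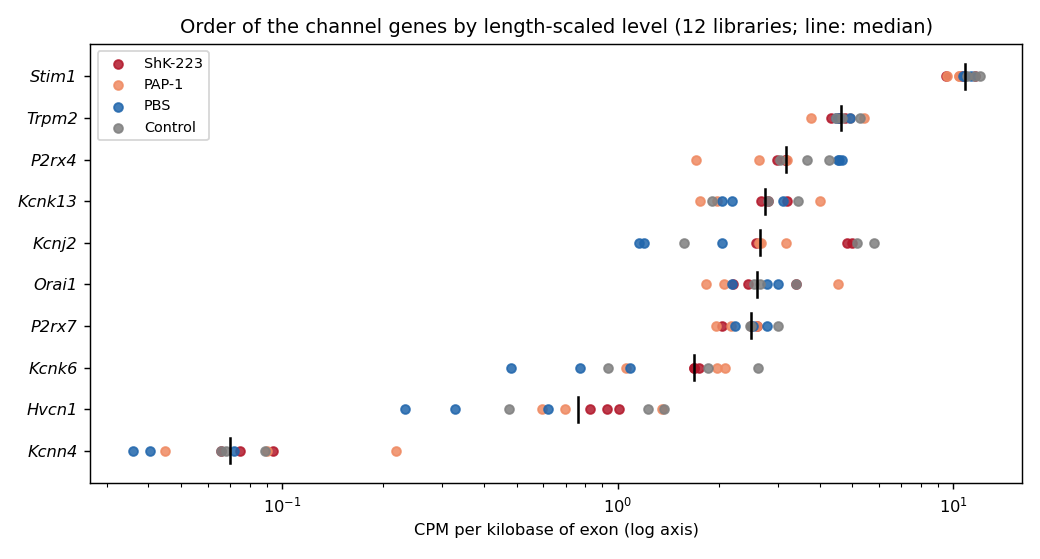
Levels of the 10 channel genes in CPM per kilobase of exon on a log axis, with 1 point per library coloured by group and a line at the median over 12 libraries. Stim1 lies apart at the top (median 10.8) and Kcnn4 at the bottom (median 0.0702), while the ranges of the genes in the middle overlap.

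The table's gene names were placed on GRCm38 with the GENCODE M21 annotation. Hvcn1 (chr5:122206804-122242297), P2rx7 (chr5:122643911-122691432), P2rx4 (chr5:122707544-122729738) and Orai1 (chr5:123015074-123030456) all lie on the plus strand of chromosome 5 within 823.7 kb, and P2rx4 begins 16.11 kb after the end of P2rx7. Kcnn4 (chr7:24370263-24386690, plus strand), Kcnk6 (chr7:29221926-29232515, minus strand) and Stim1 (chr7:102267806-102437319, plus strand) lie on chromosome 7. Kcnj2 is at chr11:111066164-111076821 and Kcnk13 at chr12:99964499-100062682, both on the plus strand, and Trpm2 is at chr10:77907722-77970563 on the minus strand. Hvcn1 shares 4450 bases with Tctn1 on the other strand, a gene at 15.2 to 24.1 CPM here. The sources used here do not state whether counting used strand, so reads of Hvcn1 and Tctn1 cannot be told apart in that stretch, and the same holds for Orai1 and its antisense gene Gm2479.

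The promoters of Kcnj2, P2rx4 and P2rx7 are shown because Kcnj2 and P2rx4 had the clearest and opposite patterns described below, and P2rx7 is the flat neighbour of P2rx4. Each window runs from 250 bases before to 50 bases after the RefSeq start site, is 300 bases long and is read 5′ to 3′ on the gene's strand from GRCm38.p6. The positions are chr11:111065914-111066213 for Kcnj2, chr5:122707294-122707593 for P2rx4 and chr5:122643677-122643976 for the upstream start site of P2rx7, all on the plus strand. Capitals mark matches, on either strand, to GAGGAAG (the core bound by PU.1, the lineage factor of microglia and macrophages), GGGCGG (the GC box) or TATAAA (the TATA box).
Kcnj2: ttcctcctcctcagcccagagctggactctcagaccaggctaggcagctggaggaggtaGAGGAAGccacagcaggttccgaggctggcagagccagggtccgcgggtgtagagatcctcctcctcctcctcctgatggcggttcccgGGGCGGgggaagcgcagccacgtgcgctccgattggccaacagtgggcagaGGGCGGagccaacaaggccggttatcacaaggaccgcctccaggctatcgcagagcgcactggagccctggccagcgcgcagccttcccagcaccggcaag
P2rx4: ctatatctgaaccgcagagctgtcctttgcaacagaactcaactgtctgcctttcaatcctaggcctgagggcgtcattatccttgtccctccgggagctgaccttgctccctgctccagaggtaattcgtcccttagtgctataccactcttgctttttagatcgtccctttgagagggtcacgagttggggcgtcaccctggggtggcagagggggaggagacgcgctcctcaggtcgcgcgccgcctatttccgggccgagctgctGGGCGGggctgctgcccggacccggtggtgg
P2rx7: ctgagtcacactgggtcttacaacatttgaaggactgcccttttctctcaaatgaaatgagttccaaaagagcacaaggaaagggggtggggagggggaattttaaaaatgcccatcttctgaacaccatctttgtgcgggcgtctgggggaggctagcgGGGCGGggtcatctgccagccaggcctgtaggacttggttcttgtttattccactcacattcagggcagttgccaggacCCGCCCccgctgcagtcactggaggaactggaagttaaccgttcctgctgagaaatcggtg
Promoter windows were found for 8 of the 10 genes, 9 windows in all. The Kcnj2 window holds 1 PU.1 core at position -191 from the start site and GC boxes at -102 and -51. P2rx4 has 1 GC box at 19, and the P2rx7 window shown has GC boxes at -90 and -11. A downstream start site of P2rx7, with the window chr5:122650133-122650432, has 1 PU.1 core at 4. Over 32851 mouse promoter windows of this length, 13.6% hold the PU.1 core, 35.7% the GC box and 13.6% the TATA box. The matches overlap no other match and describe the letters only.

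Each compound was compared with PBS to ask how Kv1.3 block changes channel expression in amyloid-bearing brain. Of the 10 genes, 9 passed the filter on low counts and entered edgeR's quasi-likelihood test with 15061 genes in all. With ShK-223, Kcnj2 and Kcnk6 were higher and P2rx4 was lower than with PBS at an adjusted p of 0.05. With PAP-1, Kcnk6 was higher and P2rx4 lower than with PBS. Among all genes tested 39.1% were called for ShK-223, 18.8% higher and 20.3% lower, and 43.7% for PAP-1, 21.1% higher and 22.6% lower. The 3 and 2 calls among 9 channel genes were therefore no more than this background would hold. The median log2 fold change of the 9 genes was 0.01 for ShK-223 and 0.08 for PAP-1, against -0.01 for all genes in both comparisons. In bulk tissue, more cells of a type and more RNA per cell cannot be told apart. The PBS libraries serve both comparisons.

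**Figure D2:**
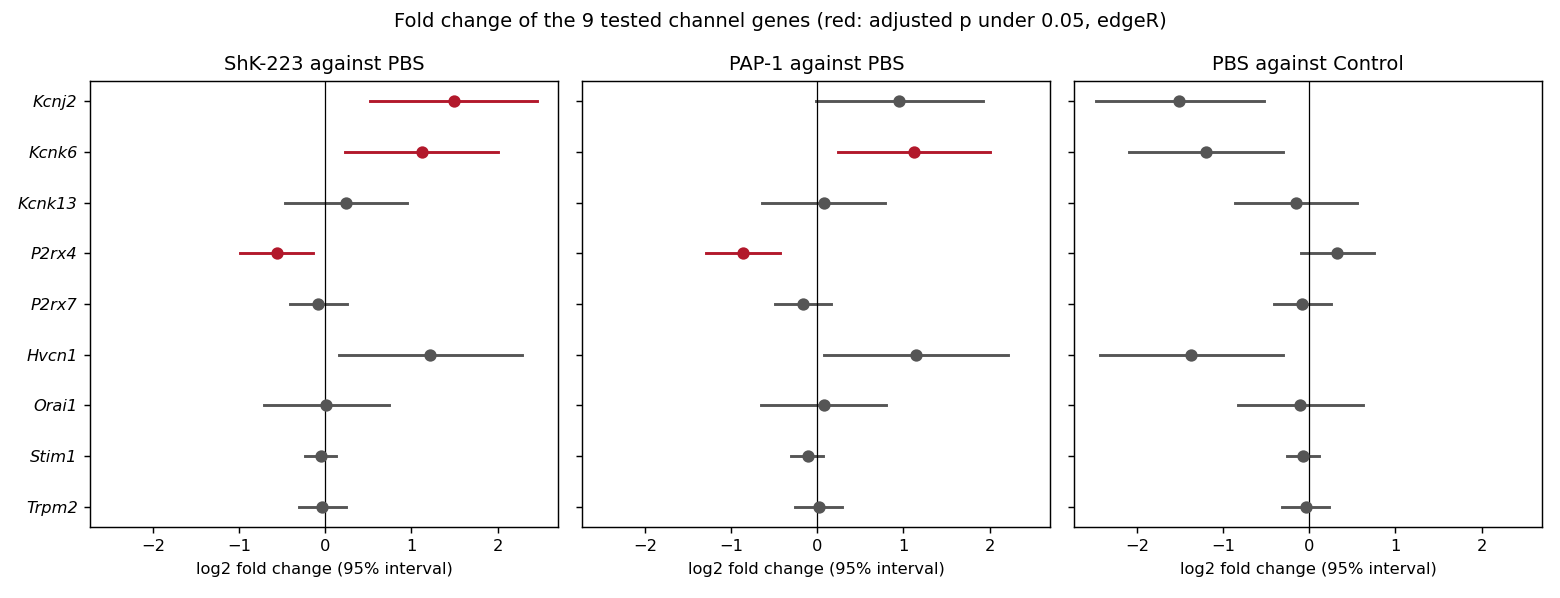
Log2 fold change (points) with its 95% interval (lines) for the 9 tested channel genes in 3 comparisons, in red where edgeR's adjusted p was under 0.05. Kcnj2 (1.49) and Kcnk6 (1.12) lie right of 0 and P2rx4 (-0.56) left of it with ShK-223, and the same 3 genes point the other way in PBS against Control, where none passed.

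Among the potassium channels, Kcnj2 encodes the inward rectifier Kir2.1, which holds the membrane near the potassium equilibrium potential in microglia and in many neurons. Kcnj2 was at 14, 26.2 and 27.2 CPM in ShK-223 libraries 1, 2 and 3, at 14.5, 17.3 and 14.4 CPM in PAP-1, at 11.1, 6.34 and 6.52 CPM in PBS, and at 28.2, 8.60 and 31.5 CPM in Control. Every library of either compound was above every PBS library, and Control 2 fell among the PBS libraries. For ShK-223 the log2 fold change of Kcnj2 was 1.49 (SE 0.44, edgeR adjusted p = 0.0235), with group means of 22.5 ± 7.32 CPM in ShK-223 and 7.98 ± 2.69 CPM in PBS (SD, n = 3 each). For PAP-1 it was 0.95 (SE 0.44, adjusted p = 0.102), with a mean of 15.4 ± 1.62 CPM in PAP-1. The ShK-223 call ended without PBS 2 (1.36), PBS 3 (1.36), ShK-223 2 (1.36) or ShK-223 3 (1.34), with edgeR adjusted p up to 0.0861, and over all 23 other settings its adjusted p ran from 0.00185 to 0.994. Within batch CH, with 2 ShK-223 libraries and 1 PBS library, the log2 ratio of means was 1.70, and within batch C, with 1 PAP-1 library and 2 PBS libraries, it was 0.97. With the batch as a term the ShK-223 value was 1.28 and did not pass (adjusted p = 0.169).

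Kcnk6 encodes TWIK-2, a tandem-pore potassium channel reported to carry potassium out of macrophages upstream of NLRP3. Kcnk6 was at 7.21, 7.00 and 7.02 CPM in ShK-223, at 8.67, 4.40 and 8.23 CPM in PAP-1, at 4.53, 2.00 and 3.20 CPM in PBS, and at 10.8, 3.89 and 7.73 CPM in Control. The ShK-223 libraries all exceeded the PBS libraries, whereas PAP-1 2 fell within their range. Its log2 fold change was 1.12 (SE 0.40) for both ShK-223 (edgeR adjusted p = 0.0473) and PAP-1 (adjusted p = 0.0432). Both calls lie close to the threshold: each held in 4 of 12 fits that left out 1 library, with the fold between 0.88 and 1.44 and adjusted p up to 0.154 and 0.145, the highest without PBS 2. Both calls ended without Control 3, PBS 2, PBS 3, PAP-1 1, PAP-1 3 or any single ShK-223 library. Within batch CH the log2 ratio for ShK-223 was 1.83, where the only PBS library, PBS 2, was the lowest of its group, and within batch C that for PAP-1 was 0.19. With the batch as a term both calls ended, at 0.81 (edgeR adjusted p = 0.259) for ShK-223 and 0.63 (adjusted p = 0.306) for PAP-1.

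Kcnk13 encodes THIK-1, the tandem-pore channel that carries the tonic potassium current of microglia. Kcnk13 was at 8.30, 9.96 and 8.73 CPM in ShK-223, at 12.5, 5.49 and 6.16 CPM in PAP-1, at 6.37, 6.82 and 9.65 CPM in PBS, and at 10.7, 5.93 and 8.74 CPM in Control. The groups overlapped in all comparisons with PBS, and PAP-1 1 alone reached above 12. The log2 fold change was 0.24 (95% interval -0.47 to 0.95) for ShK-223 and 0.08 (-0.64 to 0.79) for PAP-1. Without PAP-1 1 its value for PAP-1 was -0.39.

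Kcnn4, the calcium-activated channel KCa3.1, had 7, 6 and 9 counts in the ShK-223 libraries, 17, 4 and 8 in PAP-1, 3, 3 and 6 in PBS, and 7, 6 and 6 in Control. It did not pass the filter on low counts. With every gene that had a count admitted, its log2 fold change was 0.63 (SE 0.59, edgeR adjusted p = 0.451) for ShK-223 and 1.19 (SE 0.58, adjusted p = 0.141) for PAP-1. A difference was not detectable at this depth.

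**Figure D3:**
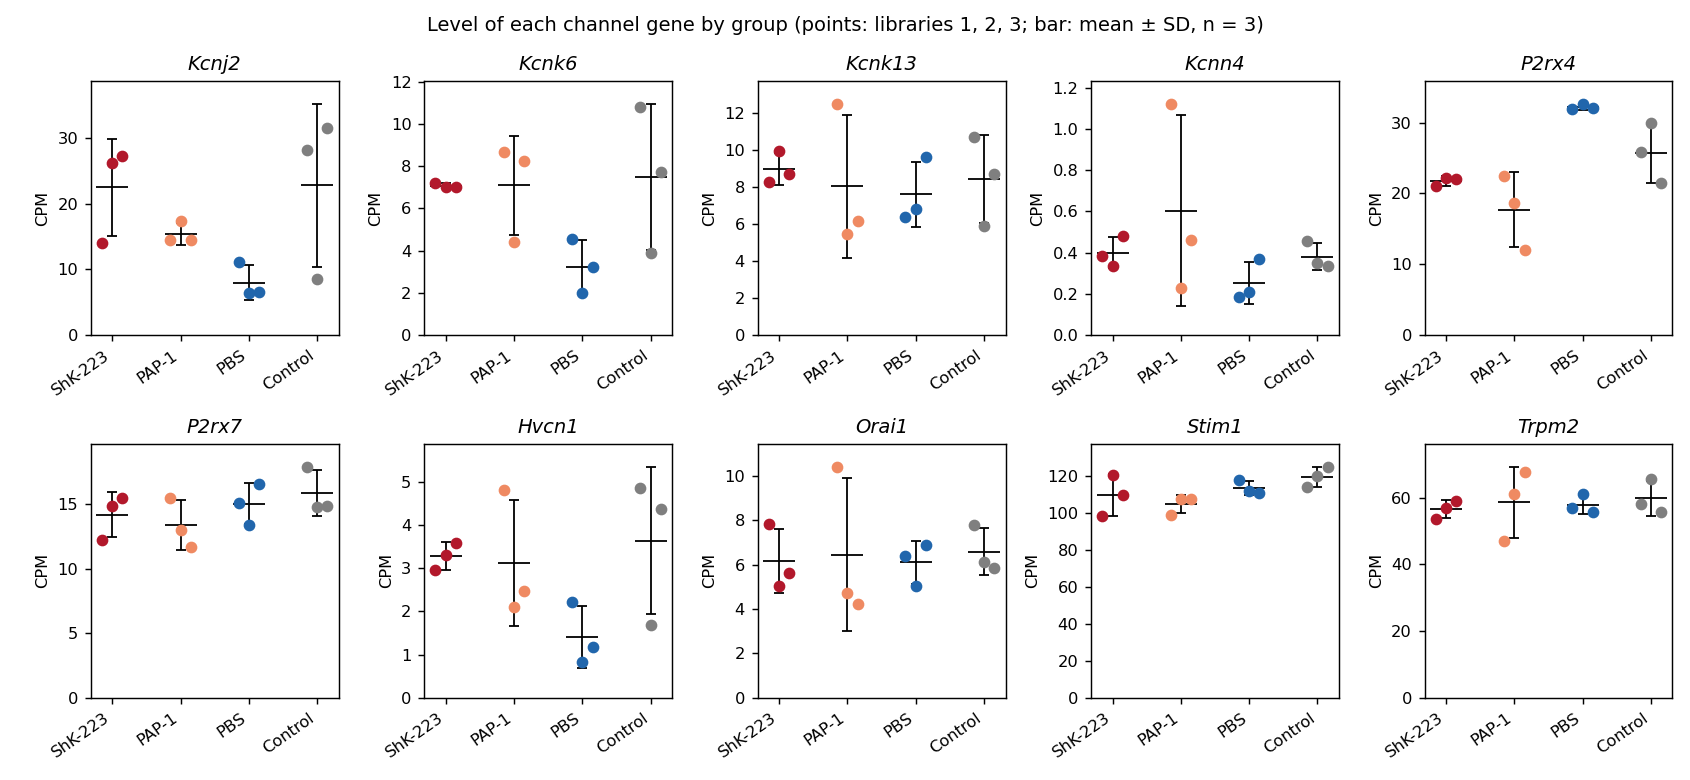
CPM of each channel gene per library (points) with the group mean ± SD (bars, n = 3) for ShK-223, PAP-1, PBS and Control. Kcnj2 lies at 6.34 to 11.1 CPM in PBS and at 14 CPM or more in both compound groups, P2rx4 lies at 31.9 to 32.6 CPM in PBS and at 22.5 CPM or less in both compound groups, and Stim1 lies at 99.3 to 108 CPM in PAP-1, under 111 to 118 CPM in PBS and 114 to 125 CPM in Control.

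P2rx4 encodes a P2X receptor found in microglia, where nerve injury raises it in the spinal cord, and in neurons. P2rx4 was at 21.0, 22.2 and 22.1 CPM in ShK-223, at 22.5, 18.6 and 12.0 CPM in PAP-1, at 31.9, 32.6 and 32.0 CPM in PBS, and at 25.8, 29.9 and 21.4 CPM in Control. All 6 compound libraries were below the PBS libraries, and the highest Control library was Control 2. Its log2 fold change was -0.56 for ShK-223 (SE 0.19, edgeR adjusted p = 0.0407) and -0.86 for PAP-1 (SE 0.19, adjusted p = 0.00786). The PAP-1 value passed in all 12 fits that left out a library (-1.07 to -0.65). That of ShK-223 passed in 4 of 12, with the fold between -0.58 and -0.52, and missed the threshold without any single PBS or ShK-223 library, Control 1 or PAP-1 2 (adjusted p up to 0.108). Within batch CH the log2 ratio for ShK-223 was -0.60, and within batch C that for PAP-1 was -0.78. With the batch as a term the ShK-223 value was -0.47 and did not pass (edgeR adjusted p = 0.2).

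P2rx7, the receptor whose opening by high ATP leads to inflammasome activation, lies 16.11 kb upstream of P2rx4 on the same strand. P2rx7 was at 12.2, 14.9 and 15.5 CPM in ShK-223, at 15.5, 13 and 11.7 CPM in PAP-1, at 15.1, 13.4 and 16.6 CPM in PBS, and at 17.9, 14.8 and 14.9 CPM in Control. Its groups overlapped in every comparison with PBS. The log2 fold change was -0.08 (95% interval -0.41 to 0.25) for ShK-223 and -0.16 (-0.49 to 0.16) for PAP-1.

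Hvcn1 encodes the voltage-gated proton channel. Hvcn1 was at 2.95, 3.30 and 3.59 CPM in ShK-223, at 4.80, 2.11 and 2.48 CPM in PAP-1, at 2.21, 0.826 and 1.17 CPM in PBS, and at 4.86, 1.69 and 4.37 CPM in Control. The ShK-223 libraries exceeded those of PBS without overlap, and PAP-1 2 fell just under PBS 1. The log2 fold change was 1.22 for ShK-223 (SE 0.48, edgeR adjusted p = 0.0651) and 1.15 for PAP-1 (SE 0.48, adjusted p = 0.0753), so neither passed. Without Control 2 both passed (1.21, adjusted p = 0.0284, and 1.14, adjusted p = 0.0349), and without PBS 1 too (1.70, adjusted p = 0.0357, and 1.63, adjusted p = 0.0374). DESeq2 called both (adjusted p = 0.0359 and 0.046). Over all 23 other settings, Hvcn1 passed in 5 for ShK-223 and in 4 for PAP-1, with adjusted p up to 0.999 and 0.952. With the batch as a term the ShK-223 value was 0.87 and did not pass (edgeR adjusted p = 0.349). Without PAP-1 1 the PAP-1 value was 0.70.

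Orai1 is the pore subunit of the store-operated calcium channel and Stim1 the calcium sensor of the endoplasmic reticulum that opens it. Orai1 was at 7.81, 5.04 and 5.63 CPM in ShK-223, at 10.4, 4.74 and 4.20 CPM in PAP-1, at 6.37, 5.03 and 6.89 CPM in PBS, and at 7.78, 6.10 and 5.83 CPM in Control. PAP-1 1 was the highest library, as it was for Kcnk13 and Kcnn4. Stim1 was at 98.7, 121 and 109.9 CPM in ShK-223, at 99.3, 108 and 108 CPM in PAP-1, at 118, 112 and 111 CPM in PBS, and at 114, 120.0 and 125 CPM in Control. All PAP-1 libraries of Stim1 lay below all PBS and all Control libraries, by a small margin, and neither difference passed edgeR's test. The log2 fold change of Orai1 was 0.01 (95% interval -0.71 to 0.74) for ShK-223 and 0.08 (-0.65 to 0.80) for PAP-1. That of Stim1 was -0.05 (-0.23 to 0.13) for ShK-223 and -0.11 (-0.30 to 0.07) for PAP-1, the narrowest intervals of the 9 genes. Without PAP-1 1 the Orai1 value for PAP-1 was -0.45.

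Trpm2 encodes a calcium-permeable channel opened by ADP-ribose under oxidative stress, present in microglia and in neurons. Trpm2 was at 53.7, 56.8 and 59.0 CPM in ShK-223, at 46.9, 61.2 and 67.7 CPM in PAP-1, at 56.8, 61.2 and 55.8 CPM in PBS, and at 58.1, 65.6 and 55.6 CPM in Control. The PAP-1 libraries held both its lowest and its highest value. The log2 fold change was -0.04 (95% interval -0.31 to 0.24) for ShK-223 and 0.02 (-0.26 to 0.29) for PAP-1.

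The differences from PBS moved with the cerebellar content of the libraries. Kcnj2 was at 6.34 to 11.1 CPM in the 4 libraries rich in cerebellar transcript and at 14 to 31.5 CPM in the other 8, without overlap. P2rx4 was at 29.9 to 32.6 CPM in those 4 and at 12.0 to 25.8 CPM in the other 8, also without overlap. Kcna3, not among the 10 genes, did not overlap either (2.15 to 2.69 against 2.86 to 4.38 CPM). The share of all genes that separate these libraries without overlap was not counted, so the separation is not shown to be particular to channel genes. Kcnk6 (2.00 to 4.53 against 4.40 to 10.8 CPM) and Hvcn1 (0.826 to 2.21 against 2.11 to 4.86 CPM) overlapped slightly. Markers of cerebellar granule cells fell for 10 of 10 genes and those of Purkinje cells for 10 of 10 with ShK-223, and for 4 of 10 and 8 of 10 with PAP-1, while 15 of 17 and 11 of 17 microglia markers rose. Forebrain excitatory neuron markers rose for 7 of 8 genes with each compound. With the cerebellar index as a term in edgeR, 0 of all genes passed in either comparison (by DESeq2 and limma-voom this fit was not run). The log2 fold change of Kcnj2 was then -0.59 for ShK-223 and -1.05 for PAP-1, that of Kcnk6 -0.32 and -0.24, that of Hvcn1 -0.32 and -0.29, and that of P2rx4 -0.07 and -0.39. The index and the groups overlap almost wholly, since all PBS libraries are high and all compound libraries low, so tissue content and treatment cannot be told apart here. With the batch as a term, 4 genes and 0 channel genes passed for ShK-223, and 2752 genes and 1 channel gene for PAP-1, P2rx4 at -0.86 (edgeR adjusted p = 0.0447).

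**Figure D4:**
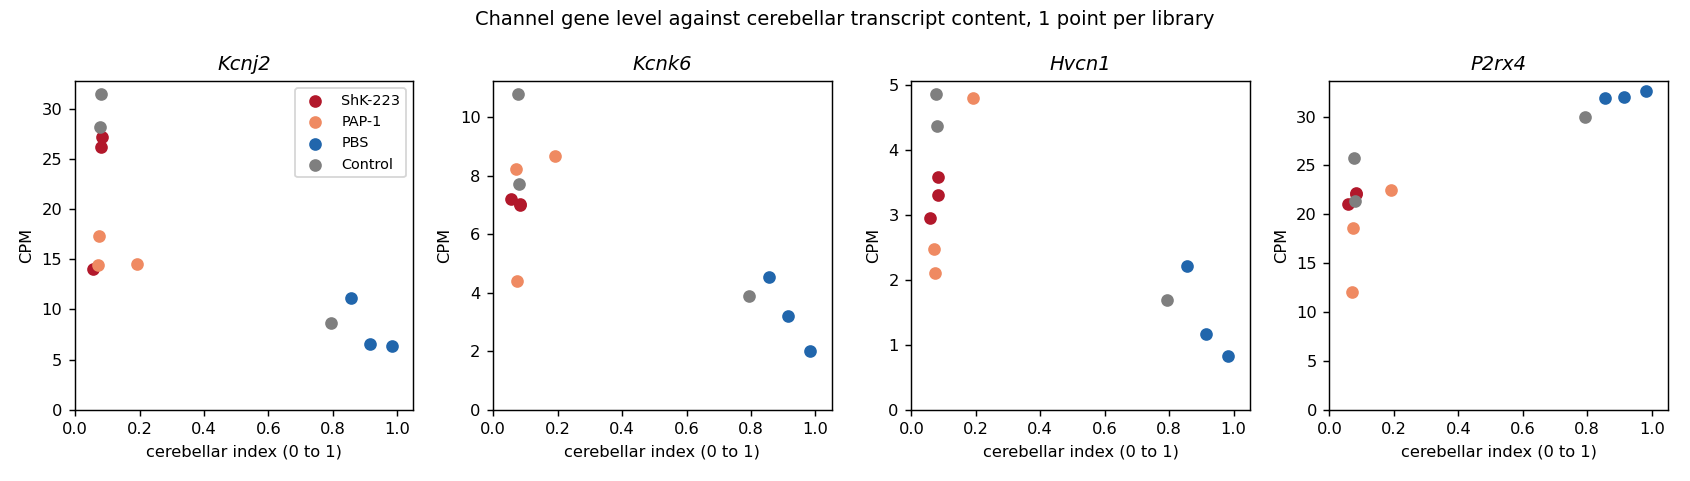
CPM of Kcnj2, Kcnk6, Hvcn1 and P2rx4 against the cerebellar index, a value between 0 and 1, with 1 point per library coloured by group. The 3 PBS libraries and 1 Control library lie at an index of 0.794 or more, with Kcnj2 at 11.1 CPM or less and P2rx4 at 29.9 CPM or more, and the other 8 libraries lie at 0.191 or less.

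The channel genes were next set against the microglia markers within each library, as log2 CPM minus the mean log2 CPM of the 17 markers. That mean was 5.59, 5.56 and 5.70 in ShK-223, 5.70, 5.32 and 5.36 in PAP-1, 4.76, 3.64 and 4.19 in PBS, and 6.26, 4.24 and 5.75 in Control. Kcnk6, Hvcn1 and Kcnj2 varied less after this step, with SD over the 12 libraries of 0.25, 0.24 and 0.35 on the log2 scale against 0.69, 0.76 and 0.80 for their levels. Relative to the markers Kcnk6 averaged -2.77 ± 0.08 in ShK-223, -2.67 ± 0.43 in PAP-1, -2.52 ± 0.05 in PBS and -2.60 ± 0.32 in Control (SD, n = 3 each). Hvcn1 averaged -3.86 ± 0.11 in ShK-223, -3.85 ± 0.40 in PAP-1, -3.69 ± 0.14 in PBS and -3.64 ± 0.28 in Control. Once the microglia markers were subtracted, Kcnk6 ran from -2.86 to -2.72 in ShK-223 and from -2.56 to -2.46 in PBS. These ranges did not overlap, in the opposite order to its levels, and its PAP-1 range of -3.14 to -2.30 spanned both. The Hvcn1 ranges, -3.98 to -3.78 in ShK-223 and -3.82 to -3.54 in PBS, overlapped. The share of all genes separated in this way was not counted, and no difference was tested. The marker mean was 3.64 to 4.76 in the libraries rich in cerebellar transcript and 5.32 to 6.26 in the others. Subtracting it can shrink the spread of any gene that is lower in the former, whichever cells express it. The share of all genes with a smaller spread after the step was not counted. Whether Kcnk6, Hvcn1 and Kcnj2 follow microglia was therefore not tested. Kcnk13, P2rx4, P2rx7, Orai1, Stim1 and Trpm2 varied more after the step than before, with SD of 0.69 to 1.07 against 0.10 to 0.41. The marker mean itself varies, so subtracting it raises the spread of a gene with a small one even where that gene follows the markers, and the step does not show whether these 6 genes follow them. P2rx4 averaged -1.17 ± 0.08 in ShK-223, -1.35 ± 0.36 in PAP-1, 0.82 ± 0.58 in PBS and -0.74 ± 1.22 in Control. These are descriptions of 12 libraries that share the same tissue differences.

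**Figure D5:**
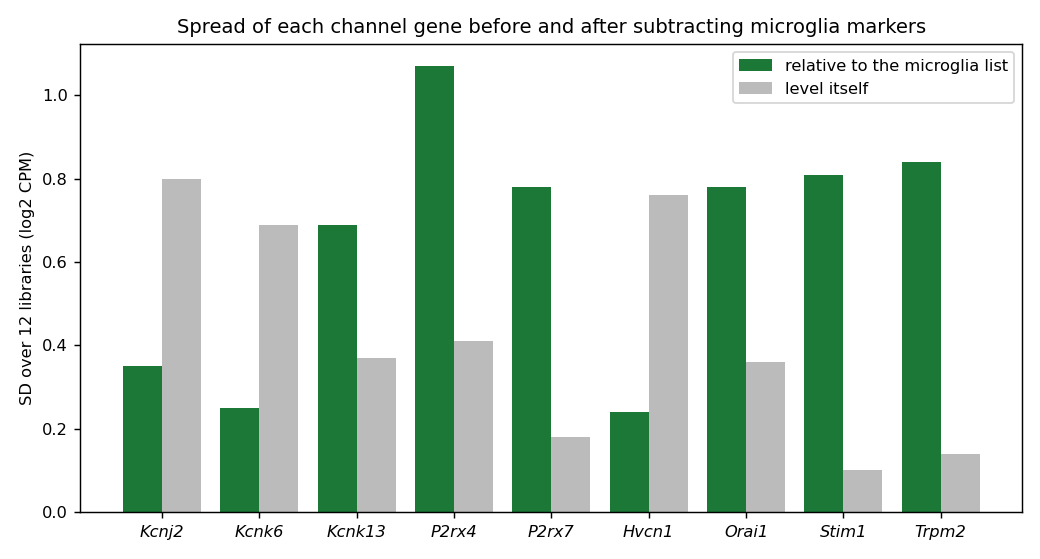
SD over the 12 libraries, in log2 CPM, of each tested channel gene relative to the mean of the microglia markers (green) and of its level itself (grey). The green bar is the shorter one for Kcnj2 (0.35), Kcnk6 (0.25) and Hvcn1 (0.24) and the longer one for the other 6 genes.

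Genes with the most similar profile were sought by the root mean square difference of centred log2 CPM over the 12 libraries, among genes that averaged at least 1 CPM and varied at least 0.5 times as much as the channel gene. For Kcnk6 these were Irf5 (0.159), Dock8 (0.182) and Nod2 (0.195), and for Hvcn1 Vsir (0.160), Nfam1 (0.173) and Tlr7 (0.176). Kcnj2 was most like Arpp19 (0.128), Kcns2 (0.196) and Foxp1 (0.206). P2rx4 was most like Rbms1 (0.135), Tmbim1 (0.136) and Tmco6 (0.141). For Kcnk13 the nearest genes were Medag, Zfp580 and Srxn1 (0.199 to 0.212), for Orai1 Tubb6, Slc14a1 and Racgap1 (0.112 to 0.144), for P2rx7 Stxbp3, Gm2a and Slc35f3 (0.086 to 0.092), for Stim1 Sec22b, Hikeshi and Rab11b (0.049 to 0.054) and for Trpm2 Cntn1 (0.055) and Ccdc43 (0.065). These 5 channel genes had SD of only 0.10 to 0.37 themselves, so small differences also come with flat profiles.

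Other genes of the same pathways were counted against PBS in the same edgeR test, where, as for the channel genes, none passed with the cerebellar index as a term. Over all genes tested 39.1% were called for ShK-223 and 43.7% for PAP-1, and the counts of calls below are to be read against these shares. Of 23 tested potassium channels of the same families, Kcna3 among them, 7 rose and 5 fell with ShK-223, and 6 rose and 6 fell with PAP-1. Kcnj4, an inward rectifier of forebrain neurons, averaged 101 ± 17.0 CPM in ShK-223, 96.9 ± 6.40 in PAP-1 and 15.4 ± 21.0 in PBS, and rose with both. Its relative Kcnj12 fell with both, at 11.4 ± 0.750 CPM in ShK-223, 15.9 ± 7.52 in PAP-1 and 69.5 ± 4.77 in PBS (SD, n = 3 each). The tandem-pore channels Kcnk10 and Kcnk12 also fell with both, Kcnk12 being at 5.87 ± 0.263 CPM in ShK-223, 6.60 ± 1.02 in PAP-1 and 22.4 ± 4.27 in PBS.

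Of 17 tested genes of purinergic signalling, 7 rose and 1 fell with ShK-223, and 6 rose and 1 fell with PAP-1. Panx1, the channel through which cells release ATP, averaged 16.0 ± 2.62 CPM in ShK-223, 19.6 ± 5.42 in PAP-1 and 4.07 ± 0.746 in PBS. P2ry6, the UDP receptor linked to microglial phagocytosis, averaged 4.93 ± 0.935 CPM in ShK-223, 4.90 ± 1.80 in PAP-1 and 1.61 ± 0.721 in PBS. Both rose with either compound against PBS, as did the adenosine receptor gene Adora3, whereas P2ry1 fell with either, at 1.87 ± 0.370 CPM in ShK-223, 1.78 ± 0.636 in PAP-1 and 5.10 ± 1.57 in PBS. In Control, Panx1 averaged 12.9 ± 5.80 CPM, P2ry6 4.21 ± 2.74 and P2ry1 5.69 ± 1.79 (SD, n = 3).

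Of 8 inflammasome genes, 1 rose with ShK-223, the NLRP3 partner Nek7 (44.3 ± 3.27 CPM in ShK-223 against 34.4 ± 3.46 in PBS), and 2 rose with PAP-1, Il1b and the pore-forming Gsdmd. Il1b, interleukin-1 beta, was low throughout, at 1.18 ± 0.646 CPM in PAP-1 against 0.225 ± 0.289 in PBS. Of 6 NADPH oxidase genes, 2 rose with ShK-223, the catalytic subunit Cybb and the small GTPase Rac2, and Rac2 also rose with PAP-1. Rac2 averaged 5.76 ± 1.42 CPM in ShK-223, 4.57 ± 1.51 in PAP-1 and 1.95 ± 0.635 in PBS.

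Around Orai1 and Stim1, 2 of 17 store-operated calcium entry genes rose and 7 fell with each compound. The falls included Itpr1, the calcium release channel abundant in Purkinje cells, at 774 ± 297 CPM in ShK-223, 685 ± 194 in PAP-1 and 3793 ± 221 in PBS. The calcium pump gene Atp2a3 averaged 9.08 ± 1.90 CPM in ShK-223, 21.0 ± 24.1 in PAP-1 and 264 ± 19.2 in PBS, and Ryr1 28.3 ± 11.8, 36.3 ± 5.64 and 119 ± 5.24 CPM in ShK-223, PAP-1 and PBS. Control spread widely, with Itpr1 at 1877 ± 1734, Atp2a3 at 78.4 ± 119 and Ryr1 at 56.2 ± 45.1 CPM (SD, n = 3). Of 17 tested TRP channels, 5 rose and 6 fell with ShK-223, and 4 rose and 6 fell with PAP-1. Trpc4 rose with both, to 18.2 ± 5.24 CPM in ShK-223 and 26.3 ± 1.83 in PAP-1, against 3.78 ± 0.732 in PBS. Itpr1 is also in the list of Purkinje cell markers.

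ShK-223 was also set against PAP-1, both being Kv1.3 blockers, a peptide and a small molecule, at doses that the sources used here do not state. None of the 9 channel genes passed, beside a background of 0% of 15061 genes called by edgeR (684 at an unadjusted p under 0.05, and 5 called by DESeq2). For Kcnj2 the difference was 0.54 with a 95% interval of -0.40 to 1.49 (adjusted p = 0.984), which leaves room for a difference in either direction. For the other 8 genes it lay between -0.06 for Orai1 and 0.30 for P2rx4. The intervals were narrowest for Stim1 (-0.12 to 0.25) and widest for Hvcn1 (-0.94 to 1.09).

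PBS was set against Control, although the labels do not say how these groups differ. Here 5.02% of all genes were called and none of the 9 channel genes. The 4 genes with the largest values had the opposite sign to their values for the compounds against PBS, with which they share the PBS libraries. Kcnj2 was at -1.51 (SE 0.44, edgeR adjusted p = 0.0641), Kcnk6 at -1.20 (SE 0.40, adjusted p = 0.0828), Hvcn1 at -1.37 (SE 0.48, adjusted p = 0.0899) and P2rx4 at 0.32 (SE 0.19, adjusted p = 0.25). Control was divided: Kcnj2 was at 28.2 and 31.5 CPM in libraries 1 and 3 and at 8.60 CPM in Control 2, the library rich in cerebellar transcript. Without Control 2, Kcnj2 (-1.90, edgeR adjusted p = 0.000962), Kcnk6 (-1.51, adjusted p = 0.00672) and Hvcn1 (-1.71, adjusted p = 0.00939) passed. That fit called 6721 of 15299 genes. Without Control 2 and PAP-1 1, P2rx4 passed too (0.45, adjusted p = 0.0426), and 7278 of 15213 genes were called. DESeq2 called Kcnj2, Kcnk6 and Hvcn1 with all libraries, among 3002 of 15061 genes. The channel gene calls of each fit are to be read against its share of all genes. Within batch C, with 2 PBS libraries and Control 2, the log2 ratios of Kcnj2, Kcnk6, P2rx4 and Hvcn1 were 0.03, -0.01, 0.09 and 0.00. Within batch CH, with 1 library of each, they were -2.31, -1.95, 0.61 and -2.40.

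Against Control, none of the 9 channel genes passed with either compound. edgeR called 0% of 15061 genes for ShK-223 (1027 at an unadjusted p under 0.05, and 10 called by DESeq2) and 0% for PAP-1 (2290 at an unadjusted p under 0.05, and 383 called by DESeq2, 0 of them channel genes). Kcnj2 averaged 22.5 ± 7.32 CPM in ShK-223, 15.4 ± 1.62 in PAP-1 and 22.7 ± 12.4 in Control, and Kcnk6 7.07 ± 0.116, 7.10 ± 2.35 and 7.49 ± 3.48 CPM in ShK-223, PAP-1 and Control (SD, n = 3 each). P2rx4 with PAP-1 was at -0.54 (SE 0.19, edgeR adjusted p = 0.258), with values of -0.75 to -0.33 when 1 library was left out. For Kcnj2 and Kcnk6 the spread within Control was wide, and Control 2, at 8.60 and 3.89 CPM, lay within the range of the PBS libraries. For P2rx4, Control 2 was the highest Control library at 29.9 CPM but lay below every PBS library (31.9 to 32.6 CPM).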

How the data were processed

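RNA from 12 brains was sequenced, and the authors' deposited table holds raw counts, 1 row per gene. The submitters' processing notes name STAR 2.7.11a, R 4.3.2, DESeq2 1.40.2 and the build GRCm38. The sources used here do not say how reads were counted, whether strand was used or what the batch names B, C and CH mean. Groups follow the treatment labels. No library was a copy of another, since the chi-square per gene between any pair was at least 7.07.

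From the counts, filterByExpr kept 15061 genes and edgeR 4.0.16 (R 4.3.3) scaled them by TMM. The quasi-likelihood test took all 12 libraries at once with group as its factor, adjusted by Benjamini-Hochberg over all tested genes within each comparison, with calls at 0.05. Standard errors (SE) are the fold over the root of F and approximate. CPM use TMM-scaled totals, and log2 CPM a prior count of 2. Other settings were DESeq2 1.42.0, limma-voom (limma 3.58.1), RLE scaling, 2 filters, added terms for batch, RNA integrity, the cerebellar index or (chosen after seeing the data) a striatal index, the compared groups alone, and fits without 1 or 2 libraries. The pipeline was tested on simulated data. Members, lists (204 of 205 symbols matched, in 18 lists) and the naming rule were chosen with earlier results of these data known. The rule names all 10 channel genes, up to 4 called genes per pathway list with the largest fold against PBS (some are given), the 3 most alike genes, and markers a result turns on. Some genes that follow from it are not reported here. Promoters are from RefSeq.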

Additional observations from a re-analysis of the deposited data

How the results depend on the processing

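The counts of calls and these fold changes were recomputed in 23 other settings: those of the 9 channel genes against PBS, of Kcnj2, Kcnk6, Hvcn1 and P2rx4 for PBS against Control, of P2rx4 for PAP-1 against Control and of Kcnj2 between the compounds. Without counting fits that left out 1 library, 214 fold changes kept their direction and their side of the threshold, 15 passed newly, 12 passed no longer and 23 reversed. The cause of these changes was not tested.

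With limma-voom, 5782 of 15061 genes and 1 channel gene were called for ShK-223 against PBS. For PAP-1 against PBS it called 6461 genes and 1 channel gene, and for PBS against Control 3 genes. Orai1 was then at -0.01 for ShK-223 and -0.07 for PAP-1, and Kcnk13 at -0.03 for PAP-1. DESeq2 called 5 genes for ShK-223 against PAP-1, 3002 genes and 3 channel genes for PBS against Control, 10 for ShK-223 against Control and 383 for PAP-1 against Control. With the batch as a term, 4 genes and 0 channel genes were called for ShK-223 against PBS, 2752 genes and 1 channel gene for PAP-1 against PBS, and 2 genes for PBS against Control. Kcnk13 (-0.05), Orai1 (-0.06) and Trpm2 (0.00) then reversed for ShK-223, and Kcnk13 (-0.32) and Orai1 (-0.08) for PAP-1.

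With the cerebellar index as a term, 0 genes and 0 channel genes were called for ShK-223 and for PAP-1 against PBS, 0 genes for PBS against Control and 6 genes for PAP-1 against Control. For ShK-223 against PBS this term reversed Kcnj2 (-0.59), Kcnk6 (-0.32), Hvcn1 (-0.32), Kcnk13 (-0.31) and Trpm2 (0.14). For PAP-1 against PBS it reversed Kcnj2 (-1.05), Kcnk6 (-0.24), Hvcn1 (-0.29) and Kcnk13 (-0.44), and for PBS against Control Kcnj2 (0.18) and P2rx4 (-0.02). The striatal index, chosen after seeing the data, left 4401 of 15061 genes and 1 channel gene for ShK-223 against PBS, with Trpm2 at 0.00. For PAP-1 against PBS it left 7440 of 15061 genes and 4 channel genes. It left 0 genes for PBS against Control and 1 gene for ShK-223 against Control. RNA integrity as a term gave 137 genes for PBS against Control and Orai1 at -0.01 for ShK-223. A fit of PBS and Control alone called 0 genes. Admitting every gene with a count gave 1 gene for PAP-1 against Control. Without Control 2 and PAP-1 1, 7278 genes and 4 channel genes were called for PBS against Control and 5 genes for PAP-1 against Control, and for PAP-1 against PBS Kcnk13 was at -0.39 and Orai1 at -0.45.

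Leaving out 1 library at a time gave 3156 to 7202 genes and 0 to 4 channel genes for ShK-223 against PBS, and 3934 to 7807 genes and 1 to 4 channel genes for PAP-1 against PBS. It gave 0 to 6721 genes and 0 to 3 channel genes for PBS against Control, the most without Control 2. For ShK-223 against PAP-1 it gave 0 to 1 genes, for ShK-223 against Control 0 to 1 and for PAP-1 against Control 0 to 15, in each case with 0 channel genes. For ShK-223 against PBS these fits put Orai1 at -0.17 to 0.14, P2rx7 at -0.15 to 0.04, Stim1 at -0.13 to 0.04 and Trpm2 at -0.06 to 0.02. For PAP-1 against PBS they put Kcnk13 at -0.39 to 0.29, Orai1 at -0.45 to 0.30 and Trpm2 at -0.10 to 0.15. Kcnn4, with 3 to 17 counts per library, is limited by depth. No paired analysis was possible because replicate numbers follow sample order and pair nothing.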

Other observations

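In ShK-223 and in Control, the 2 libraries with most transcript of the striatum, by a list chosen after these values were seen, held more Kcnj2 than the third. PAP-1 did not show this order. In the ShK-223 libraries Kcnj2 was at 14, 26.2 and 27.2 CPM, where Adora2a, the adenosine receptor of striatal neurons, was at 2.18, 72.8 and 32.7 CPM and Drd2, a dopamine receptor, at 3.82, 60.1 and 28.0 CPM. In Control, Kcnj2 was at 28.2, 8.60 and 31.5 CPM beside Adora2a at 104, 1.34 and 91.1 CPM. The low library there is Control 2, which is also the one rich in cerebellar transcript (index 0.794). Striatal and cerebellar content therefore cannot be told apart in Control. In PBS, Kcnj2 was at 11.1, 6.34 and 6.52 CPM beside Adora2a at 13.4, 1.45 and 0.984 CPM. In PAP-1, Kcnj2 was at 14.5, 17.3 and 14.4 CPM beside Adora2a at 4.93, 2.11 and 5.87 CPM, so the highest Kcnj2 stood beside the lowest Adora2a. The 4 libraries with Kcnj2 above 20 CPM were those with a striatal index of 0.335 or more. With the striatal index as a term, the log2 difference of Kcnj2 between ShK-223 and PAP-1 was 0.02, against 0.54 without it, and that between ShK-223 and PBS was 0.97 (edgeR adjusted p = 0.024), against 1.49 without it. The 0.54 had not passed (edgeR adjusted p = 0.984). Since the index was chosen after these Kcnj2 values were seen, the part of striatal content in them was not tested. The adjusted p of the ShK-223 and PBS value ran from 0.00185 to 0.994 over its 23 alternatives.

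The 2 PBS libraries of batch C and Control 2 of the same batch, which differ in their treatment label, had log2 ratios of their means between -0.01 and 0.09 for Kcnj2, Kcnk6, Hvcn1 and P2rx4. In all 4 genes the value of Control 2 lay outside the range of Control 1 and Control 3, which share its label. These 4 genes were singled out by their values in these same libraries, and 1 value often lies outside the range of 2 others. The share of all genes for which this holds was not counted, so a likeness of Control 2 to either group was not tested. The 2 PBS libraries of batch C differed from each other, with Kcnj2 at 11.1 and 6.52 CPM in them and at 8.60 CPM in Control 2. For the other tested channel genes the ratios ran from -0.22 for Trpm2 to 0.43 for Kcnk13.

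PAP-1 1 held the highest level among the 12 libraries of Kcnk13 (12.5 CPM), Orai1 (10.4 CPM) and Kcnn4 (1.12 CPM), and the lowest of Trpm2 (46.9 CPM). Its cerebellar index of 0.191 was the highest of the 8 libraries poor in cerebellar transcript.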
